A study of Mus musculus with 4 samples.

Results

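The core autophagy machinery is the set of proteins that builds the autophagosome, the double-membraned vesicle that encloses cytoplasm and delivers it to the lysosome. Transcript levels of its genes were followed in B16F10, a pigmented melanoma line from mouse, after culture with plain or ozonated olive oil. The members were 33 named genes, all found by symbol among the 27179 genes of the count table. All 33 were also among the 12675 genes that passed the low-count filter, so none was left out of the tests. They were placed by role in 6 groups, which held 5 genes for the initiation complex, 7 for the lipid kinase complexes, 4 for readers of the lipid PI3P, 4 for ATG9, ATG2 and VMP1, 10 for conjugation and 3 for late steps.

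Each oil was given at 0.01% for 6 h to wild-type cells kept in DMEM with serum, and each group held 2 RNA sequencing libraries. Since the labels name no separate cultures, the spread behind each p-value is that between these libraries and may be technical. Cells without oil were not analysed here, and the comparison is of oil with and without ozone treatment. Total counts ran from 22539486 to 30038784 per library, the highest being ozonated oil library 2. The 8 melanocyte markers summed to between 19609 and 26150 CPM (counts scaled to a common library size) in the 4 libraries. The 5 keratinocyte markers summed to 24.4 and 3.53 CPM with plain oil and to 0.921 and 19.3 CPM with ozonated oil (libraries 1 and 2, the order used throughout). The fibroblast, immune and endothelial markers summed to at most 8.09, 3.20 and 0.263 CPM, and 1 of 5 immune and 2 of 4 endothelial markers had no count in any library. The keratinocyte sums overlapped between the groups, and their part in the values below was not tested.

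Autophagy begins when the ULK kinase complex is released from inhibition by the nutrient sensor mTORC1. The class III lipid kinase then makes PI3P on a membrane derived from the endoplasmic reticulum, WIPI proteins read that lipid, ATG2 and ATG9 supply further lipid, and ubiquitin-like conjugation attaches ATG8 proteins to the growing membrane. Transcription factors of the MITF and TFE family, active in melanocytic cells, recognise the sequence CACGTG and can switch on autophagy and lysosome genes.

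Values leaned to the higher side with ozonated oil, most in the initiation complex when all libraries were used (median log2 change 0.47). Median deviations from the plain oil mean in ozonated oil libraries 1 and 2 were 0.40 and 0.74 for initiation. They were 0.50 and 0.15 for ATG9, ATG2 and VMP1, so the leading group differed between the 2 libraries. Rb1cc1 and Atg13 (initiation complex), Atg14 (lipid kinase complex) and the membrane protein gene Atg9a stood highest above plain oil relative to their spread. Their differences ran from 1.46-fold (Atg9a) to 2.33-fold (Atg14). The intervals of all other members, in every group, included no difference. By edgeR's quasi-likelihood test with Benjamini-Hochberg adjustment, 0 of 33 members passed an adjusted p of 0.05, against 0 of 12675 genes (0%), and the smallest adjusted p of a member was 0.245. At an unadjusted p below 0.05 there were 4 members with a higher value, which is 12.1% of the members against a background of 4.54% of all genes tested, and 0 with a lower value, against 5.29% of genes. In either direction the background was 9.82%. DESeq2, whose background was 1.98% of genes called, called 1 member, Atg14.

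Fitted values were higher with ozonated oil for 27 of the 33 members and lower for 6, where 54.0% of all genes were higher. With total-count scaling, which moved the median of all genes from 0.035 to -0.060 on the log2 scale, 22 were higher and 11 lower. For 13 members the ozonated oil values exceeded every plain oil value (39.4%), against 19.9% of all genes, and for 3 members they lay below every one (9.09%), against 20.0% of all genes. The median log2 change of ozonated over plain oil was 0.21 for the members. These shares rest on 2 libraries a group, and the members were chosen with earlier results of these data known. Leaving out either plain oil library left 1 member higher at an unadjusted p below 0.05 (Atg14 each time, 3.03% of members), where 1.82% of genes passed when library 1 was dropped and 2.27% when library 2 was. Leaving out ozonated oil library 1 gave 8 such members (24.2%) against 10.8% of genes, and leaving out library 2 of that oil gave 6 (18.2%) against 6.39%. Counts of passing genes in all thus moved with the library dropped, and in either direction they were 3159 of 13099 and 1699 of 13116 in those last fits. The members' median became 0.11 or 0.24 when library 1 or 2 of plain oil was dropped, and 0.14 or 0.093 when library 1 or 2 of ozonated oil was.

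**Figure D1:**
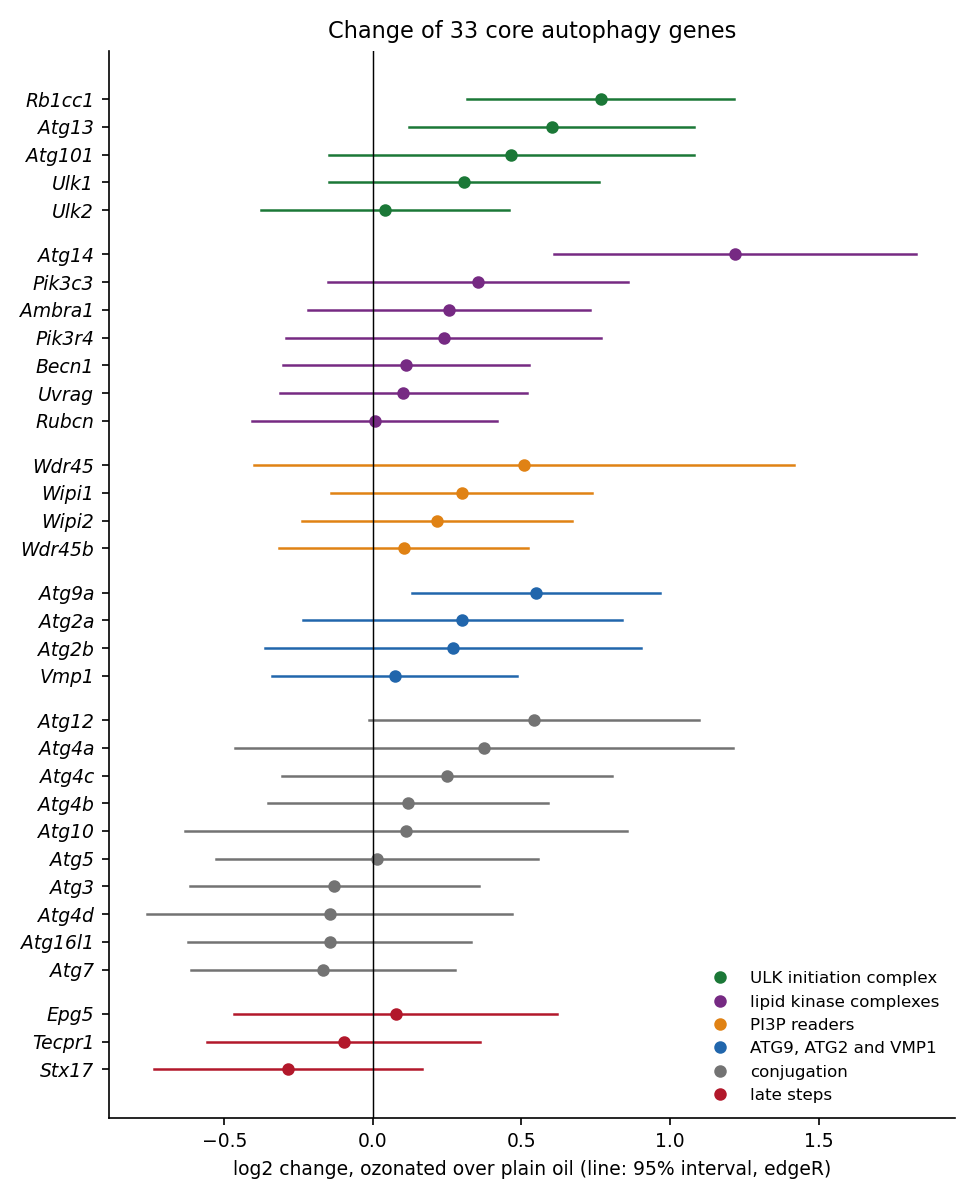
Fitted log2 change of ozonated over plain oil for each of the 33 genes (points) with its 95% interval from the edgeR fit (lines), coloured by role. The intervals of Rb1cc1, Atg13, Atg14 and Atg9a lie above 0, and those of the other 29 genes include it.

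Members of the initiation complex had a median log2 change of 0.47, or 0.71 when ozonated oil library 1 was dropped and 0.39 when library 2 was. Rb1cc1 (chromosome 1, 6214634 to 6276375 on GRCm38.p6) encodes the scaffold protein on which the ULK complex assembles. It was at 34.6 and 35.4 CPM with plain oil and at 53.9 and 65.3 CPM with ozonated oil. Both ozonated oil libraries were above both plain oil libraries, and the plain oil libraries lay close together. The log2 change of Rb1cc1 was 0.77 with a standard error of 0.19, a 1.70-fold difference (edgeR adjusted p = 0.289). That change ran from 0.61 to 0.87 with each library left out in turn, and was 0.87 without ozonated oil library 1.

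Atg13 (chromosome 2, 91674612 to 91710597) encodes the adaptor that links the ULK kinases to the RB1CC1 scaffold. Its level was 24.4 and 26.2 CPM with plain oil and 34.4 and 42.3 CPM with ozonated oil. The groups did not overlap, and the log2 change was 0.60 with a standard error of 0.20 (edgeR adjusted p = 0.407). Atg101, which encodes the partner that stabilises ATG13, was at 32.8 and 33.7 CPM with plain oil and at 35.7 and 56.1 CPM with ozonated oil. Its groups also did not overlap, but ozonated oil library 1 stood only just above plain oil. The log2 change of Atg101 was 0.47, or 0.094 when ozonated oil library 2 was dropped and 0.72 when library 1 was (edgeR adjusted p = 0.636 with all libraries).

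Ulk1 and Ulk2 encode alternative catalytic kinases of the complex. Ulk1 was at 24.7 and 24.8 CPM with plain oil and at 32.6 and 28.7 CPM with ozonated oil. Its groups did not overlap, and the log2 change was 0.31 (95% interval -0.15 to 0.76). Ulk2 was at 38.3 and 38.8 CPM and at 40.5 and 38.7 CPM, so its groups overlapped, and its log2 change of 0.040 had an interval from -0.38 to 0.46. Per kilobase of transcript, Ulk1 made up 41.5% and 41.3% of the pair with plain oil and 47.0% and 44.9% with ozonated oil. The share was higher in both ozonated oil libraries, but 0.333 is the smallest p that an exact permutation test (two-sided) can give here.

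**Figure D2:**
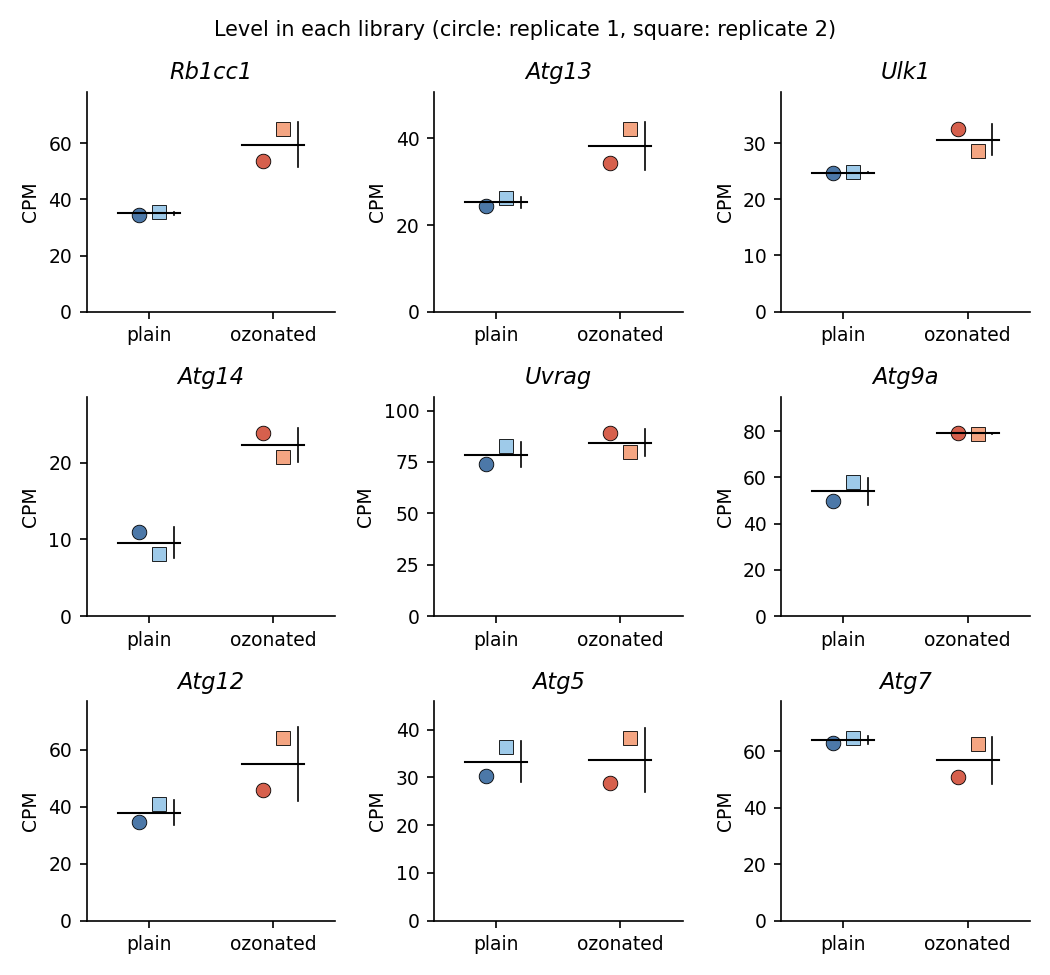
CPM of 9 members in each of the 4 libraries, with group means (horizontal lines) and SD (vertical lines, n = 2 per group). Rb1cc1, Atg13, Ulk1, Atg14, Atg9a and Atg12 have both ozonated oil points above both plain oil points, while Uvrag and Atg5 overlap and Atg7 has both ozonated oil points below.

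Within the lipid kinase group, Atg14 had the highest change of all 33 members and its partners had small ones. ATG14 directs the BECN1 and PIK3C3 core to sites of autophagosome formation, and UVRAG takes its place in a second form of the complex that acts on endosomes and at maturation. Atg14 (chromosome 14, 47540893 to 47568434) was at 11.0 and 8.15 CPM with plain oil and at 23.9 and 20.8 CPM with ozonated oil. The lowest ozonated oil value was well above the highest plain oil value. Its log2 change was 1.22 with a standard error of 0.25, a 2.33-fold difference (edgeR adjusted p = 0.245; DESeq2 adjusted p = 0.0130), and ran from 1.02 to 1.45 with each library left out in turn.

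Uvrag was at 74.1 and 82.9 CPM with plain oil and at 89.0 and 79.6 CPM with ozonated oil, with overlapping groups and a log2 change of 0.10 (interval -0.31 to 0.52). Per kilobase, the ratio of Atg14 to Uvrag was 0.205 and 0.136 with plain oil and 0.371 and 0.361 with ozonated oil. The ratio of Atg14 to Becn1 was 0.0805 and 0.0588 with plain oil and 0.167 and 0.134 with ozonated oil, while that of Uvrag to Becn1 overlapped between groups, at 0.392 and 0.433 against 0.452 and 0.372. Atg14 transcripts were thus higher relative to both Uvrag and Becn1 in each ozonated oil library, by a factor of 2.14 and 2.16 in the group means. The ratios were not tested beyond these values.

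Becn1, the regulatory core subunit, had the highest level of the lipid kinase group per kilobase (38.4 CPM per kilobase over the 4 libraries). It was at 160 and 162 CPM with plain oil and at 167 and 181 CPM with ozonated oil, a log2 change of 0.11 (interval -0.30 to 0.52). The catalytic subunit gene Pik3c3 had a log2 change of 0.35 and the gene of its regulatory partner Pik3r4 one of 0.24, with edgeR adjusted p of 0.671 and 0.802. Ambra1, which encodes a scaffold that binds BECN1, had a log2 change of 0.26. For Pik3r4 and Ambra1 the difference lay in ozonated oil library 1, and without it their changes were -0.050 and 0.024 (0.45 and 0.42 when library 2 was dropped instead). Rubcn, whose product inhibits the UVRAG form of the complex, was at 72.2 and 67.9 CPM with plain oil and at 75.2 and 65.6 CPM with ozonated oil, a log2 change of 0.0065 (interval -0.41 to 0.42). The median of the 7 genes was 0.24, and 0.024 without ozonated oil library 1.

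The upstream sequence of Atg14 holds the CACGTG element across its annotated start, and it is shown with those of Atg13 and Atg9a, which were also higher, and of Atg3 and Atg5, whose groups overlapped. Each covers 250 bases before to 10 bases after a RefSeq transcript start on GRCm38.p6, from 5′ to 3′ on the gene's strand, with CACGTG in capitals. In order, they lie at chr14:47568425-47568684, chr2:91710583-91710842, chr1:75192001-75192260 (all minus strand), chr16:45158579-45158838 and chr10:44268089-44268348 (both plus strand).
Atg14: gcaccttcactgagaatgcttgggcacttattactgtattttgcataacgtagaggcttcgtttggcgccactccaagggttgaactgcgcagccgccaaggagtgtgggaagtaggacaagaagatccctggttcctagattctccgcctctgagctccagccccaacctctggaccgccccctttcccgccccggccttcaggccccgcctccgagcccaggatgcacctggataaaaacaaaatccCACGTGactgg
Atg13: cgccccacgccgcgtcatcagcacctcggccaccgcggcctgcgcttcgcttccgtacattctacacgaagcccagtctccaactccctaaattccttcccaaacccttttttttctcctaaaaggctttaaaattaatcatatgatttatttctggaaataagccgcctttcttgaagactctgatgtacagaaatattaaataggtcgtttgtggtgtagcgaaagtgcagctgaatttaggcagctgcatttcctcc
Atg9a: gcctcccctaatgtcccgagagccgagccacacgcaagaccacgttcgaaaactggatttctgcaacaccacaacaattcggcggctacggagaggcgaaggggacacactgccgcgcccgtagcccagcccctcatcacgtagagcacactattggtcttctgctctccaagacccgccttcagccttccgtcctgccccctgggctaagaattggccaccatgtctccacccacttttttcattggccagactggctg
Atg3: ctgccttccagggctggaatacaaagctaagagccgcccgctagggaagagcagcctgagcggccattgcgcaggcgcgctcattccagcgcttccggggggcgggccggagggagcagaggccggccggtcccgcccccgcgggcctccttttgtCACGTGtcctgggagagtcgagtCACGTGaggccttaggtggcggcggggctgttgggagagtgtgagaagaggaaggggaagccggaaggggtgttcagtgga
Atg5: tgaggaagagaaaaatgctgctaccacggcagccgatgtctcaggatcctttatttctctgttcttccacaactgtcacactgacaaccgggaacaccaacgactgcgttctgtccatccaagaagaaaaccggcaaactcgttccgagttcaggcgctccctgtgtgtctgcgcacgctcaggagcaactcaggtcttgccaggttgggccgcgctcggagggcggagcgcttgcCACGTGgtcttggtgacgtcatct

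The element begins 1 base before the start of Atg14, 94 and 71 bases before that of Atg3 and 14 bases before that of Atg5, and is in neither the Atg13 nor the Atg9a sequence. Promoter windows of 300 bases, 50 of them after the start, were given for 26 of the 33 members. Rb1cc1, Atg12, Becn1, Pik3c3, Atg16l1, Epg5 and Wdr45b had no window and were not searched. CACGTG, which reads the same on both strands, was in a window of 5 of these 26 members (19.2%) and of 8.09% of 27025 genes. Besides Atg14, Atg3 and Atg5, these were Atg7 and Rubcn, for both of which the window begins at an internal start, 27969 and 9363 bases inside the gene. Of these 5 members, Atg14 was higher with ozonated oil at an unadjusted p below 0.05, and the others had log2 changes of -0.13 (Atg3), 0.013 (Atg5), -0.17 (Atg7) and 0.0065 (Rubcn). The longer TCACGTGA, searched on both strands and containing CACGTG, was in the window of Atg3 alone (3.85% of members, 1.12% of genes). TGACTCA, the AP-1 element, was in 0 of the 26 and in 5.95% of genes, on either strand. TGANNNNGC, a loose form of the antioxidant response element core with N for any base, was in 16 of the 26 (61.5%). It was in 45.0% of genes, on either strand, so a match says little about that element. A match describes these letters and is not a measured binding site.

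The 4 PI3P readers had higher fitted values by a median log2 change of 0.26, which was 0.038 without ozonated oil library 2. Wipi1 was at 27.5 and 25.3 CPM with plain oil and at 32.2 and 32.7 CPM with ozonated oil, the only reader whose groups did not overlap (log2 change 0.30, interval -0.14 to 0.74). Wipi2, whose product recruits ATG16L1 to the membrane, was at 84.1 and 77.4 CPM and at 83.3 and 104 CPM. Its high value was in ozonated oil library 2, and its log2 change was 0.21. Wdr45, which encodes a partner of ATG2, was at 15.9 and 21.8 CPM and at 17.5 and 36.1 CPM, so that replicate 2 was the higher library in both groups. The log2 change of Wdr45 was 0.51 with all libraries, -0.11 when ozonated oil library 2 was dropped and 0.90 when library 1 was. Wdr45b was at 86.3 and 99.0 CPM and at 95.8 and 103 CPM, with overlapping groups (log2 change 0.10).

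Among the genes that move lipid, Atg9a stood apart from the rest. ATG9A is the multi-spanning scramblase carried on vesicles that seed the autophagosome. Atg9a (chromosome 1, 75180861 to 75192010) was at 49.8 and 58.1 CPM with plain oil and at 79.1 and 78.8 CPM with ozonated oil. Both ozonated oil libraries were nearly equal and above both plain oil libraries. The log2 change was 0.55 with a standard error of 0.17, a 1.46-fold difference (edgeR adjusted p = 0.382).

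Atg2a and Atg2b encode the bridge-like proteins that carry lipid from the endoplasmic reticulum. Atg2a was at 18.9 and 22.9 CPM with plain oil and at 28.4 and 23.1 CPM with ozonated oil, groups that were only just apart. Atg2b was at 84.4 and 93.0 CPM and at 133 and 81.3 CPM, so ozonated oil libraries 1 and 2 stood above and below both plain oil libraries. Its log2 change of 0.27 became -0.16 when ozonated oil library 1 was dropped and 0.57 when library 2 was. Vmp1, which encodes a scramblase of the endoplasmic reticulum, was at 125 and 118 CPM and at 121 and 135 CPM (log2 change 0.074, interval -0.34 to 0.49). The median of the 4 genes was 0.28, or 0.12 when ozonated oil library 1 was dropped and 0.49 when library 2 was.

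Genes of the conjugation systems showed no shared direction. Of 10 members, 6 had a higher value (60%, against 54.0% of all genes) and 4 a lower one. At an unadjusted p below 0.05 there were 0, against 9.82% of all genes in either direction. The median log2 change was 0.062. That median took either sign: it was -0.057 or 0.19 when library 1 or 2 of plain oil was dropped, 0.19 or -0.25 when library 1 or 2 of ozonated oil was, and -0.039 with total-count scaling. Median deviations from the plain oil mean were -0.11 and 0.11 with plain oil and -0.23 and 0.23 with ozonated oil, so that these genes were higher in replicate 2 of either oil.

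Atg12, the ubiquitin-like protein that is joined to ATG5, was the exception. Its level was 34.7 and 40.9 CPM with plain oil and 45.8 and 64.3 CPM with ozonated oil. The groups did not overlap, and the log2 change was 0.54 with a standard error of 0.23 (edgeR adjusted p = 0.520), or 0.27 without ozonated oil library 2. Atg5, its acceptor, was at 30.3 and 36.3 CPM and at 28.9 and 38.3 CPM, a log2 change of 0.013 (interval -0.53 to 0.55). Per kilobase, the ratio of Atg12 to Atg5 was 0.566 and 0.557 with plain oil and 0.783 and 0.828 with ozonated oil. Atg16l1, which anchors that conjugate to the membrane, was at 37.9 and 39.9 CPM and at 31.3 and 39.0 CPM (log2 change -0.15).

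Atg7 encodes the activating enzyme of both conjugation systems. It was at 62.8 and 64.7 CPM with plain oil and at 50.8 and 62.6 CPM with ozonated oil, the only conjugation gene with both ozonated oil libraries below plain oil (log2 change -0.17, interval -0.61 to 0.28). Atg3, the conjugating enzyme for ATG8 proteins, was at 87.4 and 91.5 CPM and at 69.8 and 93.7 CPM. Atg10, the conjugating enzyme for ATG12, was at 9.91 and 11.6 CPM and at 8.90 and 14.3 CPM. For both enzymes, ozonated oil libraries 1 and 2 lay on opposite sides of plain oil.

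ATG4 proteases prepare ATG8 proteins for conjugation and later release them from the membrane. Atg4a was at 21.2 and 36.7 CPM with plain oil and at 28.8 and 46.2 CPM with ozonated oil, a wider difference between replicates than between oils. Atg4b was at 49.2 and 58.7 CPM and at 53.0 and 64.1 CPM. Atg4c was at 12.3 and 14.7 CPM and at 15.1 and 17.1 CPM, groups that did not overlap (log2 change 0.25). Atg4d was at 22.1 and 24.4 CPM and at 16.9 and 25.1 CPM. The log2 changes of the ATG4 genes ran from -0.15 for Atg4d to 0.37 for Atg4a, and the smallest edgeR adjusted p of any conjugation gene was that of Atg12.

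Late-step genes had lower or level values. Stx17, the SNARE that sits on the finished autophagosome and drives its fusion with the lysosome, was at 28.6 and 27.1 CPM with plain oil and at 23.5 and 22.2 CPM with ozonated oil. Both ozonated oil libraries were below plain oil, and the log2 change of Stx17 was -0.28 with a standard error of 0.19 (edgeR adjusted p = 0.714), the lowest of the 33 members. Tecpr1, whose product binds the ATG12 and ATG5 conjugate, was at 488 and 484 CPM and at 440 and 468 CPM, also with both ozonated oil libraries below (log2 change -0.098). Epg5, which encodes a tether of autophagosomes to late endosomes and lysosomes, was at 27.4 and 31.9 CPM and at 35.9 and 26.7 CPM (log2 change 0.077).

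**Figure D3:**
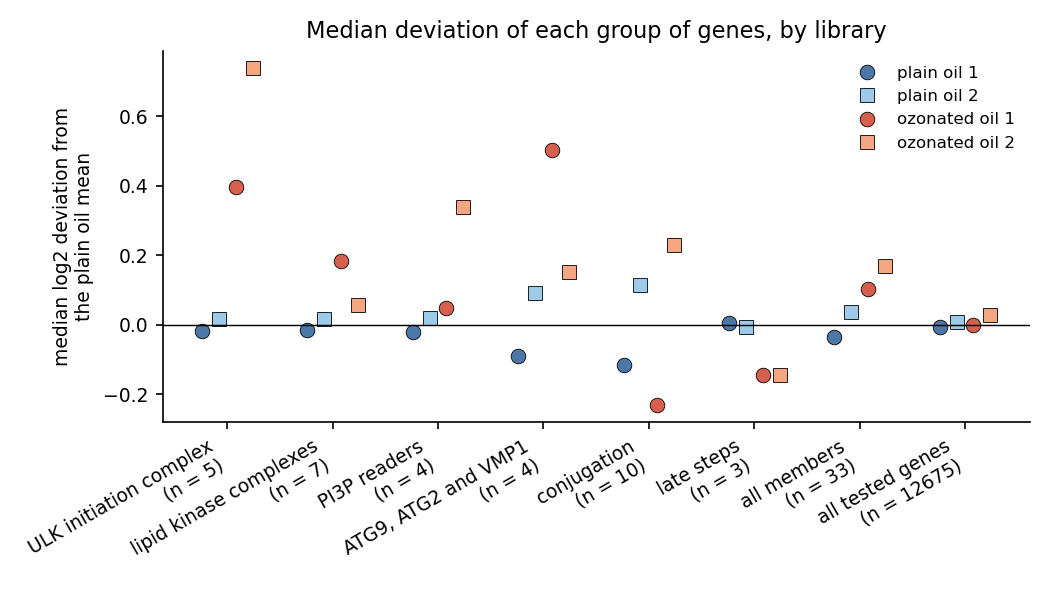
Median log2 deviation from the plain oil mean for each group of genes (horizontal positions) in each library (points), with all members and all tested genes at the right. The initiation genes lie at 0.40 and 0.74 in the ozonated oil libraries, the conjugation genes at -0.23 and 0.23, and the late-step genes at -0.14 and -0.15.

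Levels per kilobase of the longest coding transcript, averaged over the 4 libraries, were highest for Tecpr1 and lowest for Epg5 (3.15 CPM per kilobase). Tecpr1 lay between 86.2 and 95.6 CPM per kilobase in the individual libraries, apart from all other members by this length. The order depends on the length used. For Becn1 the longest coding transcript was 4365 bases and the median 725, while for Tecpr1 both were 5106. Levels by median length were not ranked, and Tecpr1 need not lead by them. Below it stood Vmp1 (44.8) and Atg3 (41.6), whose ranges over libraries overlapped, at 42.4 to 48.4 and 33.9 to 45.5 CPM per kilobase. At the low end Atg2a (3.66) and Epg5 also overlapped, at 2.96 to 4.46 and 2.76 to 3.71. Atg14 ranked 30 of 33 by this level, so the member with the highest change was among the least abundant.

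Within families, the same paralogue led in every library for the ULK, WIPI and ATG2 genes, by the longest coding transcript. Ulk2 held between 53.0% and 58.7% of the ULK pair, but with median transcript lengths Ulk1 led in ozonated oil library 1 (51.2%). Wdr45b held between 45.9% and 54.1% of the WIPI transcripts per kilobase. Atg2b held between 74.8% and 79.8% of the ATG2 transcripts, with overlapping values in the oil groups. In the ATG4 family Atg4a had 33.2% and 42.2% with plain oil and 39.2% and 45.7% with ozonated oil, and Atg4b had 40.7% and 35.6% with plain oil and 38.1% and 33.4% with ozonated oil. Atg4d had the lowest share in every library, and that share was 12.8% and 10.4% with plain oil and 8.50% and 9.18% with ozonated oil. Shares depend on the annotated lengths. With the median transcript length of each gene, the plain oil share of Atg4b was 83.1% rather than 38.1%, and that of Ulk1 45.6% rather than 41.4%.

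**Figure D4:**
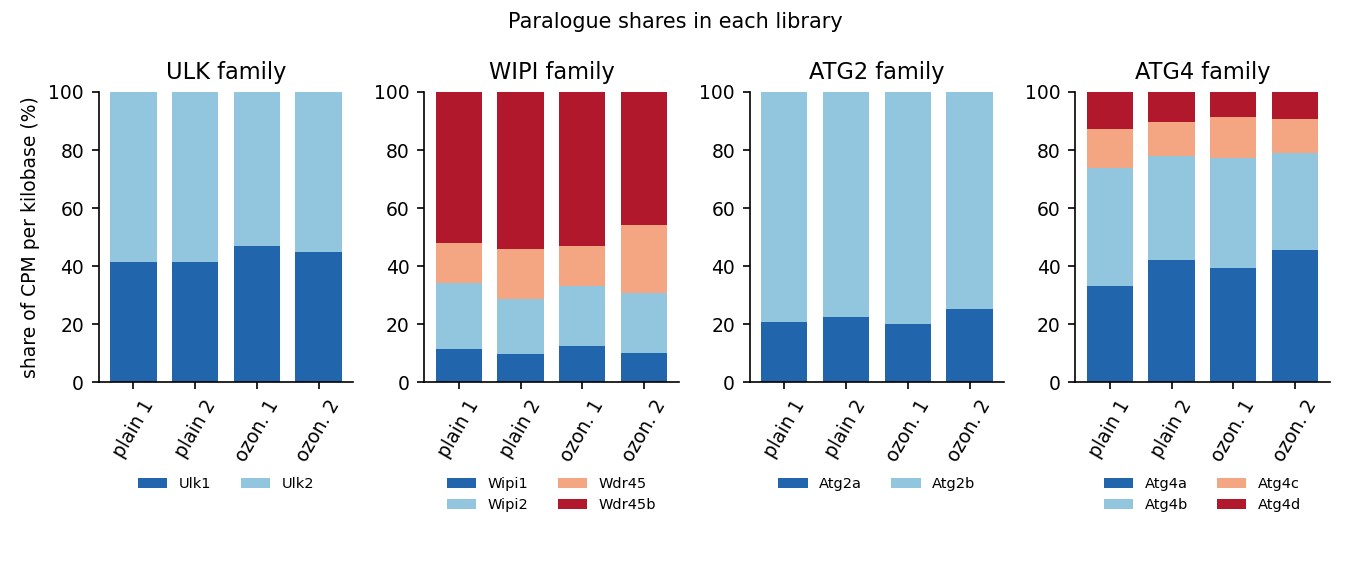
Share of each paralogue in its family's CPM per kilobase of longest coding transcript (stacked bars, %) in each of the 4 libraries. Ulk1 holds 41.5% and 41.3% of the ULK pair with plain oil and 47.0% and 44.9% with ozonated oil, while the ATG2 shares overlap between the oils.

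The 2 ozonated oil libraries differed from each other in a way that followed transcript length. Among the 33 members, the log2 ratio of ozonated oil library 2 to library 1 had a Spearman correlation of -0.64 with transcript length, and over 12059 tested genes with an annotated length the same correlation was -0.49. For the plain oil libraries it was -0.27 among members and -0.10 over those genes. These values describe genes that share the same libraries and are not replicates. Wdr45 (1609 bases) and Atg101 (1270 bases) had log2 ratios of 1.04 and 0.65 between the ozonated oil libraries, and Atg2b (7546 bases) and Epg5 (9660 bases) ratios of -0.71 and -0.43. With length and GC trends of each library removed, which was added with the data in view, the log2 changes were 0.82 for Rb1cc1, 0.66 for Atg13, 1.27 for Atg14 and 0.61 for Atg9a, and the same 4 members were below an unadjusted p of 0.05.

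**Figure D5:**
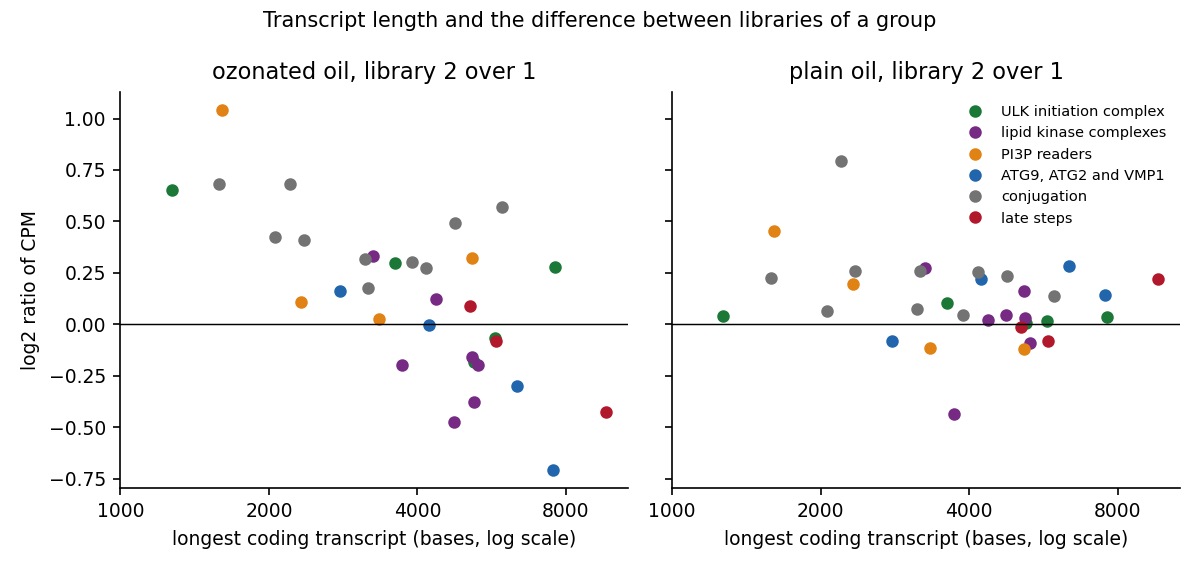
Log2 ratio of CPM in library 2 over library 1 of the same oil (vertical axis) against the longest coding transcript in bases (log axis) for the 33 members, coloured by role. Short transcripts lie above 0 and most long ones below it in the ozonated oil pair, with a Spearman correlation of -0.64, against -0.27 in the plain oil pair.

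Exons of several members overlap other annotated genes, and no source used here gives the strand setting of the counting, so reads of such pairs cannot be told apart. Among the members with the smallest p-values, Rb1cc1 shares 558 exonic bases with an antisense transcript, Atg14 shares 239 with another, and Atg9a shares 46 with Ankzf1 on the opposite strand and 1832 with the transcript Gm29253 on its own. Becn1 shares 3104 exonic bases with Cntd1 and Atg4d 1405 with Kri1, both on the opposite strand. Wdr45 shares 818 with the protein-coding gene Gm45208 on its own strand. Their part in the values was not tested.

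Other genes of the pathway were described from lists, with 0 genes past an edgeR adjusted p of 0.05 in any of them. The lists were chosen with earlier results of these data known, which limits any reading of their shares against all genes. Of 16 ATG8 proteins and autophagy receptors, 7 were higher at an unadjusted p below 0.05 (43.8%, against 4.54% of all genes tested) and 0 lower (against 5.29%), with a median log2 change of 0.49. Optn, a receptor for damaged mitochondria and bacteria, was at 80.7 and 81.9 CPM with plain oil and at 177 and 194 CPM with ozonated oil. Nbr1, a receptor for ubiquitinated cargo, was at 120 and 132 CPM and at 220 and 241 CPM. Gabarapl1 and Sqstm1 had log2 changes of 1.35 and 1.14. The genes for ATG8 proteins and receptors thus had a higher median than the 33 core members (0.21), a difference that was not tested.

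Of 11 tested accessory genes, 5 were higher at an unadjusted p below 0.05 (45.5%, against 4.54% of all genes) and 0 lower (against 5.29%), with a median of 0.36. Zfyve1, which encodes the PI3P-binding marker of autophagosome formation sites on the endoplasmic reticulum, was at 45.4 and 48.7 CPM with plain oil and at 78.7 and 83.7 CPM with ozonated oil. Trp53inp1 and Trp53inp2, whose products bind ATG8 proteins, had log2 changes of 1.08 and 0.63, and Mtmr3, a phosphatase of PI3P, one of 0.59. Atg9b was not tested. Of 11 partners in fusion, 1 was higher at that p and 0 lower, a count near the background of 4.54% and 5.29%. Their median was 0.14, and all 11 had a higher fitted value, against 54.0% of all genes. For 6 of them (54.5%) both ozonated oil libraries lay above plain oil, against 19.9% of all genes. For 0 both lay below, against 20.0%. Both Vps18 and Vps11, of the tethering complexes on late endosomes and lysosomes, had non-overlapping groups, with log2 changes of 0.45 and 0.36. Vamp8 and Snap29, the SNARE partners of STX17, had log2 changes of 0.38 and 0.17.

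Upstream of the machinery, 1 of 15 genes of the mTORC1 and AMPK kinases was higher at an unadjusted p below 0.05 (6.67%) and 0 lower, near the background of 4.54% and 5.29% of all genes, with a median of 0.11. That gene was Prkag2, a regulatory subunit of the energy sensor AMPK, at 55.6 and 58.3 CPM with plain oil and at 85.3 and 84.0 CPM with ozonated oil. Tsc1, Prkab1 and Rheb had log2 changes of 0.39, -0.36 and 0.30. Of 6 tested transcription factors of autophagy genes, Foxo3 was higher and Mitf lower at that p. Each is 1 gene, 16.7% of those tested, against 4.54% of all genes higher and 5.29% lower. Mitf was at 692 and 614 CPM with plain oil and at 354 and 253 CPM with ozonated oil, a log2 change of -1.10. Tfe3, of the same family, was at 41.2 and 42.6 CPM and at 50.6 and 67.2 CPM, a log2 change of 0.49. Foxo3 was at 19.2 and 21.2 CPM and at 42.9 and 29.0 CPM, and Zkscan3, a repressor of autophagy genes, had a log2 change of 0.29. Tfec was not tested.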

How the data were processed

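The values deposited by the authors are raw read counts of 27179 genes, with a column for each of 4 libraries. Alignment tools listed in the submitters' processing notes include HISAT2 2.1.0 and StringTie 1.3.4d, with the build mm10. How reads were assigned to genes, and with which strand setting, is not given in the sources.

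Genes were filtered with filterByExpr, scaled with TMM factors and tested by quasi-likelihood in edgeR 4.0.16 (R 4.3.3), two-sided, with group as the only term and Benjamini-Hochberg adjustment over 12675 genes. CPM were computed from the deposited counts and use the scaled library sizes. Standard errors come from the F statistic, and deviations by library from log2 CPM with a prior count of 2. Libraries of a group differed by more than counting noise (chi-square per degree of freedom 29.8 and 96.4), so none was taken for a repeat file. The test was tried on simulated counts.

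Alternatives were median-of-ratios and total-count scaling, the absence of a filter, a minimum of 1 CPM in 2 libraries, a block for replicate number, leaving out each library, DESeq2 1.42.0 and, added after the data were examined, removal of length and GC trends. With a library left out, the lone library of its group was assumed to vary like the others.

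Positions and promoters are from RefSeq GRCm38.p6, matched by Entrez identifier, and lengths from GENCODE M21 of the same build. The members and the lists were chosen with earlier results of these data known. Values by library are given for members with an unadjusted p below 0.05, for those with non-overlapping groups and a log2 change of at least 0.5, for the extremes of level and for paralogue families; other members were added after their values were seen. Each pathway list was to name up to 4 genes of smallest p.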

Additional observations from a re-analysis of the deposited data

How the results depend on the processing

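Depth was 22539486 counts or more per library, with 2 libraries a group. The 4 members below an unadjusted p of 0.05 stayed at 4 under both other scalings, the 1 CPM filter, DESeq2 and the removal of length and GC trends, and were 5 with no filter (Atg12 added). Over all genes, 0 were called in the edgeR fit (1245 at an unadjusted p below 0.05), 4 with no low-count filter and 244 with DESeq2, which called 1 member. The labels do not say that replicate numbers mark shared cultures. Deviations of same-numbered libraries correlated at 0.45 over tested genes, and with 2 pairs this is a hint from the data only. With the replicate block 1160 of 12675 genes were called, and 2632 had an unadjusted p below 0.05 in either direction. Of the 33 members, 4 were called (Rb1cc1, Atg13, Atg14 and Atg9a), and 8 were higher and 0 lower at an unadjusted p below 0.05. The share of all genes that were higher at that p is not given for this fit. The member counts are therefore not read as a result about the members. With total-count scaling the median was 0.11 for all members and -0.19 for late steps, and the log2 change turned negative for Ulk2 (-0.053), Rubcn (-0.085), Vmp1 (-0.024), Atg5 (-0.086) and Epg5 (-0.0084). That scaling takes total counts as they stand. With length and GC trends removed, the late-step median was -0.015, the conjugation median -0.020, and Atg5 (-0.022) and Atg10 (-0.017) turned negative. In all these settings the causes were not tested.

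With each library left out in turn, 1 to 389 genes and 0 to 1 members were called, 441 to 3159 genes had an unadjusted p below 0.05, and 1 to 8 members were higher at that p, with 0 lower. Medians ran from 0.093 to 0.24 for all members, 0.39 to 0.71 for initiation, 0.024 to 0.26 for lipid kinase, 0.038 to 0.31 for PI3P readers, 0.12 to 0.49 for ATG9, ATG2 and VMP1, -0.25 to 0.19 for conjugation and -0.18 to -0.093 for late steps. Log2 changes that took either sign ran from -0.025 to 0.064 for Ulk2, -0.050 to 0.45 for Pik3r4, -0.011 to 0.19 for Uvrag, -0.13 to 0.093 for Rubcn, -0.11 to 0.90 for Wdr45, -0.16 to 0.57 for Atg2b, -0.018 to 0.12 for Vmp1, -0.37 to 0.035 for Atg3, -0.015 to 0.83 for Atg4a, -0.035 to 0.25 for Atg4b, -0.47 to 0.079 for Atg4d, -0.21 to 0.17 for Atg5, -0.28 to 0.38 for Atg10 and -0.18 to 0.27 for Epg5. With median transcript lengths, plain oil shares were 45.6% and 54.4% for Ulk1 and Ulk2, 6.77%, 11.9%, 12.4% and 68.9% for Wipi1, Wipi2, Wdr45 and Wdr45b, 18.0% and 82.0% for Atg2a and Atg2b, and 10.2%, 83.1%, 3.58% and 3.10% for Atg4a, Atg4b, Atg4c and Atg4d.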
